A study of Mus musculus with 21 samples.

Results

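The subunit genes of respiratory complexes II to V were examined in epididymal white adipose tissue of germ-free and conventionally raised mice. Members were all genes of the deposited exon count table with a symbol starting Uqcr, Atp5 or Cox followed by 4 to 8, together with Cyc1 and the 4 genes Sdha, Sdhb, Sdhc and Sdhd. Symbols with the suffix -ps were left out, as were Cox7a1 and Cox8b. This gave 47 of 38087 genes, with 4 in complex II, 9 in complex III, 16 in complex IV and 18 in complex V. After a filter on low counts 44 members were tested, all of them outside 3 complex IV genes (Cox6a2, Cox7b2 and Cox8c).

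Total RNA was sequenced from 9 germ-free libraries and 12 conventional libraries. All mice were C57BL/6j males of 15 to 16 weeks with food freely available, and tissue was taken every 4 h at Zeitgeber times ZT02, ZT06, ZT10, ZT14, ZT18 and ZT22. Germ-free mice had 2 libraries at ZT06, ZT10 and ZT22 and 1 library, numbered 2, at ZT02, ZT14 and ZT18, whereas conventional mice had 2 at every time. Whether every library stands for a separate mouse is not stated, and the tests therefore see only the variation among the libraries sequenced, part of which may be technical. The labels name no mutation or transgene in either group, and microbial status and the housing that goes with it cannot be told apart.

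The respiratory chain passes electrons through complexes embedded in the inner mitochondrial membrane, and the ATP synthase uses the resulting proton gradient to make ATP. Complex II is succinate dehydrogenase, shared with the citric acid cycle, complex III is the cytochrome bc1 complex, complex IV is cytochrome c oxidase and complex V is the ATP synthase. White fat cells hold fewer mitochondria than brown fat cells, and their respiratory capacity is known to bear on lipid storage and release. A few members are not subunits of the working enzymes. Atp5s encodes coupling factor B, Atp5sl is related to it, Cox7a2l takes part in building respiratory supercomplexes, and Atp5l2 carries the biotype processed pseudogene in the GENCODE M21 annotation.

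Germ-free fat had more transcript of nearly every subunit. Of the 44 tested members, 41 were higher in germ-free libraries and 0 were lower at an adjusted p under 0.05 (edgeR quasi-likelihood F test with time as a factor, Benjamini-Hochberg over 18334 genes). The background for a higher call was 15.3%, or 2805 of 18334 genes. The median log2 fold change was 0.43 over the members, a 1.35-fold difference, against 0.026 over all genes tested. By complex, 4 of 4 genes rose in complex II, 9 of 9 in complex III, 12 of 13 in complex IV and 16 of 18 in complex V. The median log2 fold changes were 0.39 for complex II, 0.46 for complex III, 0.45 for complex IV and 0.39 for complex V, so the complexes moved by similar amounts (differences between complexes were not tested). Together the 47 genes took 0.944% ± 0.109 of all counts in germ-free libraries (SD, n = 9) and 0.707% ± 0.065 in conventional libraries (SD, n = 12). In bulk tissue, fewer cells of a type and less RNA per cell cannot be told apart, so these values do not say which cells carried the difference. Some other fits gave fewer calls, and the 15.3% background, from the main fit of all 21 libraries, does not apply to them. In the times with 2 libraries in each arm 10 members passed, with a median log2 fold change of 0.39. A further fit of all 21 libraries held shared time terms and a separate arm difference for each replicate number. For number 2 (6 germ-free and 6 conventional libraries) 37 passed, with a median of 0.45. For number 1 (3 germ-free and 6 conventional libraries) 0 passed, with a median of 0.40. The arm difference was not called different between the numbers for any member. The smallest p for that was 0.203, for Atp5s (edgeR quasi-likelihood F test, adjusted p = 0.867).

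**Figure D1:**
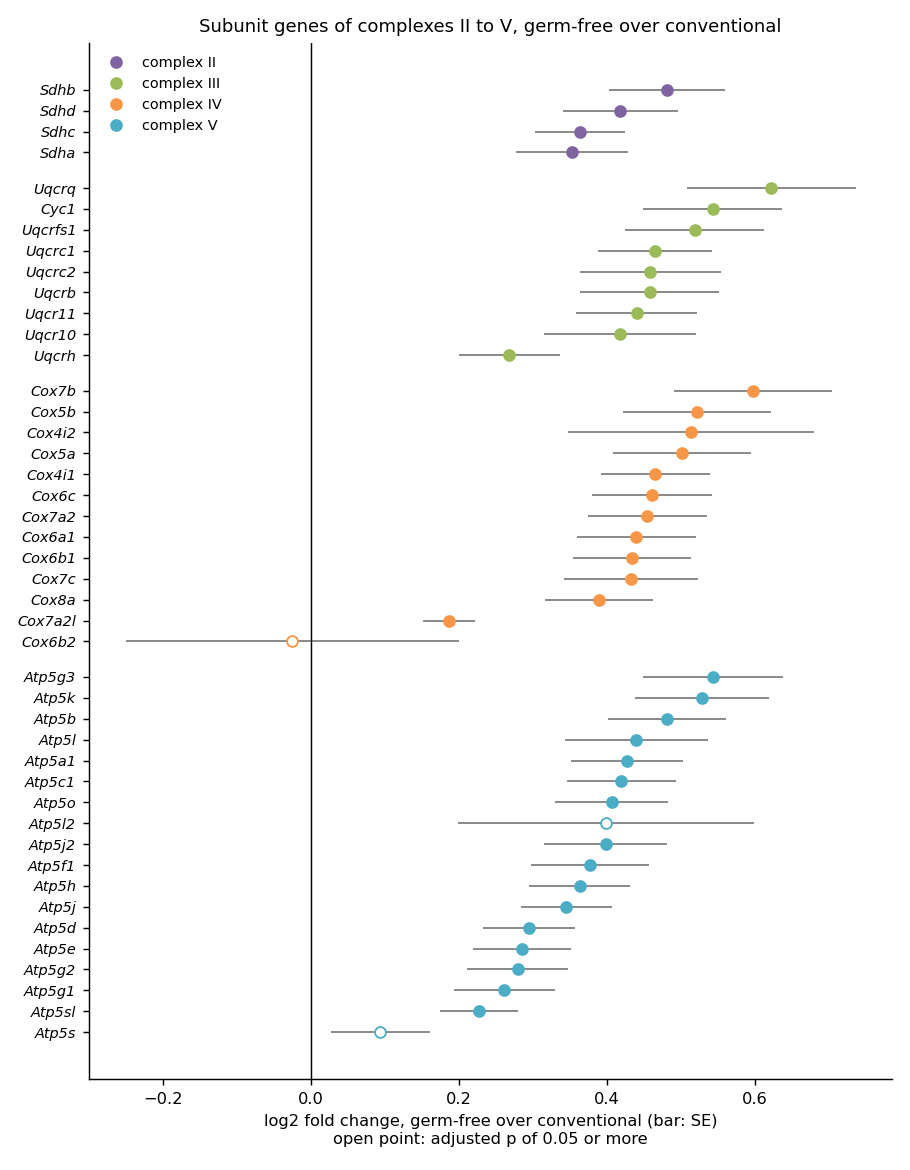
Log2 fold change, germ-free over conventional, of the 44 tested subunit genes (rows, grouped by complex; bars are the SE of the fit, n = 9 germ-free and 12 conventional libraries; open points did not pass an adjusted p of 0.05). All points except Cox6b2 (-0.025) lie to the right of 0, from Atp5s at 0.094 to Uqcrq at 0.62.

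The arms overlapped in part for each member. No tested member had every germ-free library above every conventional one (0 of 44; 0.295% of all genes did). For Sdhb, Uqcrc1, Cox4i1, Cox8a and Atp5b, 8 of the 9 germ-free libraries lay above the highest conventional library. The germ-free libraries were uniform in direction, with 41 to 44 of the 44 members above their own conventional mean in each. Among conventional libraries the same count ran from 2 to 42, with 42 and 41 members above the mean in the ZT06 libraries and 42 in ZT22 replicate 1. Where both arms had 2 libraries, both germ-free values exceeded both conventional values for 19 of 44 members at ZT06 (21.3% of all genes), 40 at ZT10 (26.5%) and 40 at ZT22 (25.5%).

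In complex II all members rose. Sdhb encodes the iron-sulfur subunit that relays electrons from succinate. It had 133, 165 and 207 CPM (read counts per library size, scaled by TMM; lowest, median and highest) in germ-free libraries, against 106, 117 and 152 CPM in conventional libraries. Only the germ-free ZT02 library fell inside the conventional range. The log2 fold change was 0.48 ± 0.08 (SE, adjusted p = 5.97e-04). The membrane anchors Sdhc (0.36 ± 0.06) and Sdhd (0.42 ± 0.08) rose as well. Sdhc averaged 164 ± 18.7 CPM in germ-free libraries and 127 ± 11.6 CPM in conventional libraries (SD, n = 9 and 12), and Sdhd averaged 143.8 ± 20.98 CPM in germ-free and 107 ± 12.8 CPM in conventional libraries. Sdha, the flavin-bearing catalytic subunit, had 464, 594 and 724 CPM in germ-free libraries, against 414, 450 and 574 CPM in conventional libraries. It was the complex II gene with the smallest log2 fold change, 0.35 ± 0.08 (adjusted p = 0.00302).

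Complex III held the largest change of any member. Uqcrq, a small subunit near the ubiquinone-binding site, had 86.8, 107 and 161 CPM in germ-free libraries, against 52.6, 68.8 and 91.7 CPM in conventional libraries. The 2 lowest germ-free libraries, ZT02 and ZT06 replicate 2, lay inside the conventional range, and the log2 fold change was 0.62 ± 0.11 (adjusted p = 0.00118). The electron-carrying subunits rose with it. Cyc1, which encodes cytochrome c1, had 112, 144 and 178 CPM in germ-free libraries, against 75.9, 95.9 and 127 CPM in conventional libraries (log2 fold change 0.54 ± 0.09, adjusted p = 8.68e-04). Uqcrfs1, the Rieske iron-sulfur protein, had 138, 171 and 234 CPM in germ-free libraries, against 102, 121 and 164 CPM in conventional libraries (0.52 ± 0.09, adjusted p = 0.00112). Uqcrc1, a core protein of the matrix arm, had the smallest p of the complex, with 208.4, 238 and 315 CPM in germ-free libraries, against 153, 176 and 208.5 CPM in conventional libraries (0.46 ± 0.08, adjusted p = 6.83e-04). The other 5 genes ran from 0.27 for Uqcrh, the hinge protein that helps cytochrome c dock, to 0.46 for Uqcrc2, the partner of Uqcrc1.

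Complex IV split into a broadly present core that rose and a set of tissue-restricted isoforms at low counts. Cox4i1, the largest subunit encoded in the nucleus, had 347, 419 and 532 CPM in germ-free libraries, against 269, 297 and 356 CPM in conventional libraries. Only the germ-free ZT02 library lay inside the conventional range (log2 fold change 0.47 ± 0.07, adjusted p = 4.90e-04, the smallest p among members). Cox6c averaged 183 ± 25.3 CPM in germ-free and 132 ± 16.1 CPM in conventional libraries (0.46 ± 0.08, adjusted p = 9.18e-04). Cox7a2, the form of subunit VIIa found in most tissues, had 99.8, 120 and 153 CPM in germ-free libraries, against 77.0, 84.7 and 108 CPM in conventional libraries (0.45 ± 0.08, adjusted p = 9.86e-04). Cox7b, an X-linked subunit gene, had 100.96, 135 and 177 CPM in germ-free libraries, against 72.9, 86.7 and 114 CPM in conventional libraries, and at 0.60 ± 0.11 it changed most in the complex (adjusted p = 0.00103). Cox5b, Cox5a, Cox6a1, Cox6b1, Cox7c and Cox8a lay between 0.39 and 0.52.

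Cox7a2l, related in sequence to Cox7a2, had a smaller fitted change. It had 82.7, 95.2 and 106 CPM in germ-free libraries, against 74.2, 82.2 and 89.1 CPM in conventional libraries, with 7 of 9 germ-free libraries above the conventional maximum. Its log2 fold change was 0.19 ± 0.04 (adjusted p = 0.00146), which became 0.087 (adjusted p = 0.070) once the per-library trend with exon length was taken out. Its protein sits at the interface of complexes III and IV and is shortened in C57BL/6 strains.

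The restricted isoforms were near the floor. Cox4i2, best known from lung, had 1.89, 2.42 and 5.29 CPM in germ-free libraries, against 1.03, 1.90 and 2.52 CPM in conventional libraries. Its log2 fold change was 0.51 ± 0.17 (adjusted p = 0.0301), and this call was lost without any 1 of 8 libraries, the value then being 0.37 without germ-free ZT22 replicate 2, the library at 5.29 CPM. Cox6b2, a testis isoform, averaged 0.862 ± 0.303 CPM in germ-free libraries and 0.894 ± 0.339 CPM in conventional libraries (log2 fold change -0.025 ± 0.225, adjusted p = 0.955). Cox6a2, the form of heart and skeletal muscle, gathered 23 counts over the 9 germ-free libraries and 38 over the 12 conventional ones. The testis forms Cox7b2 and Cox8c gathered 19 and 28 counts over the germ-free libraries and 19 and 46 over the conventional ones. Cox8c had 7, 8 and 11 counts in germ-free ZT02, ZT06 replicate 1 and ZT22 replicate 1, and 14 and 25 counts in conventional ZT14 replicate 1 and ZT22 replicate 1. The same 5 libraries had summed spermatid marker levels of 42.7 CPM or more (Prm1, Prm2, Tnp1, Tnp2, Odf1 and Akap4), and the other 16 had 14.02 CPM or less. Whether tissue next to the fat pad contributed these counts was not tested.

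In complex V both parts of the enzyme rose, the catalytic F1 head and the membrane-bound Fo part. Atp5b, the catalytic beta subunit, was the member with the most counts. It had 1532, 1803 and 2332 CPM in germ-free libraries, against 1187, 1301 and 1586 CPM in conventional libraries. Only the ZT02 germ-free library fell inside the conventional range (log2 fold change 0.48 ± 0.08, adjusted p = 6.43e-04). Atp5c1, the gamma subunit of the rotating stalk, averaged 398 ± 51.1 CPM in germ-free and 296 ± 34.9 CPM in conventional libraries (0.42 ± 0.07, adjusted p = 9.41e-04). Atp5k, the small e subunit that takes part in dimer formation, had 74.6, 89.0 and 118 CPM in germ-free libraries, against 54.9, 61.8 and 79.8 CPM in conventional libraries (0.53 ± 0.09, adjusted p = 8.12e-04). Atp5g3, a c-ring gene, had 188, 255 and 310 CPM in germ-free libraries, against 144, 162 and 221 CPM in conventional libraries, the largest change of the complex at 0.54 ± 0.09 (adjusted p = 8.94e-04).

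The members of complex V that did not pass are not enzyme subunits. Atp5s had 6.51, 8.24 and 9.64 CPM in germ-free libraries, against 5.89, 7.53 and 8.66 CPM in conventional libraries (log2 fold change 0.094 ± 0.067, adjusted p = 0.326). The pseudogene Atp5l2 averaged 2.62 ± 1.08 CPM in germ-free and 1.91 ± 0.415 CPM in conventional libraries (0.40 ± 0.20, adjusted p = 0.154). It resembles Atp5l, and the sources used here do not say how reads matching several places were counted, so its counts and those of its parent are uncertain. The remaining 12 genes, among them Atp5a1 (alpha subunit, 0.43), Atp5o (oligomycin sensitivity protein, 0.41), Atp5f1 (peripheral stalk, 0.38) and Atp5d and Atp5e (central stalk, 0.29 each), passed with values from 0.23 for Atp5sl to 0.44 for Atp5l.

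The order of levels per length was nearly the same in both arms. Per kilobase of exon, Cox8a stood first with 590 ± 75.5 CPM in germ-free and 446 ± 49.0 CPM in conventional libraries, followed by Cox6b1 (437 CPM per kilobase in germ-free and 321 in conventional libraries) and Atp5b (428 in germ-free and 305 in conventional libraries). The next places were taken by Atp5a1, Cox5b and Cox6a1, with Cox5b and Cox6a1 differing by less than their spread (313 ± 62.6 and 311 ± 47.6 CPM per kilobase in germ-free libraries). Complex II genes lay between 50.4 and 144 CPM per kilobase in germ-free libraries and between 39.1 and 112 in conventional ones. Atp5o ranked 40 of 44 because the table gives it an exon length of 31011 bases, so its level per length is not comparable with the others. The other ranks rest on the exon lengths of the table as well. Cox6c, with 183 CPM in germ-free libraries and 4941 bases, ranked 36. Cox6b1, with 221 CPM and 505 bases, ranked 2.

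The proteins made from Atp5g1, Atp5g2 and Atp5g3 mature to the same c subunit, so their shares describe how its mRNA is divided among the genes, given the exon lengths used. Per kilobase of exon, Atp5g3 made up 55.9% ± 1.90 of the 3 transcripts in germ-free libraries and 51.4% ± 0.970 in conventional libraries. Germ-free values ran from 51.9% to 57.8% and conventional ones from 49.8% to 53.0%, so 8 of the 9 germ-free libraries lay above every conventional one. An exact permutation test of the arms within times gave p = 1.71e-04, the smallest its 5832 relabellings can give (2-sided, adjusted p = 8.57e-04 over 5 shares). The share of Atp5g1 was 4.16% ± 0.470 in germ-free and 4.63% ± 0.392 in conventional libraries (exact permutation test, adjusted p = 0.0369), although its own CPM rose (log2 fold change 0.26). That call was lost when any 1 of 10 libraries was left out. The size of these shares rests on exon lengths of 4912 bases for Atp5g1, 441 for Atp5g2 and 2181 for Atp5g3. Not scaled by length, germ-free libraries averaged 251 CPM for Atp5g3, 41.6 for Atp5g1 and 36.0 for Atp5g2. As a share of counts, the difference for Atp5g1 was -1.98 points in place of -0.47 (exact permutation test, adjusted p = 0.00686). That for Atp5g3 was 3.54 points in place of 4.52 (exact permutation test, adjusted p = 8.57e-04). Of Cox7a2 and Cox7a2l together, Cox7a2l made up 33.8% ± 3.28 in germ-free and 37.9% ± 2.33 in conventional libraries, with overlapping ranges (exact permutation test, adjusted p = 0.0171). The share of Cox4i2 beside Cox4i1 was 1.38% in germ-free and 1.39% in conventional libraries (exact permutation test, adjusted p = 0.980), and that of Cox6a2 beside Cox6a1 was 0.0392% and 0.0669% (exact permutation test, adjusted p = 0.103).

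**Figure D2:**
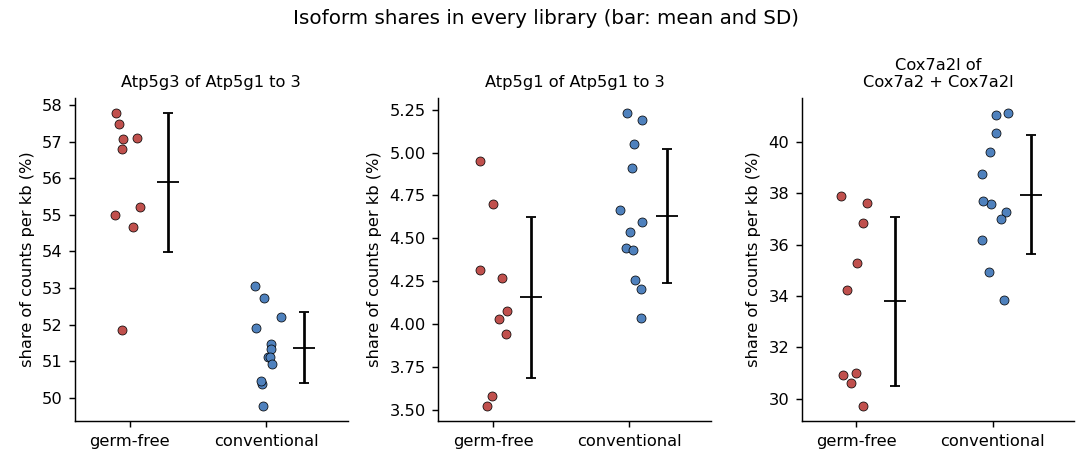
Share of counts per kilobase of exon (y axis, percent) in every germ-free and conventional library for Atp5g3 and Atp5g1 within the 3 c-subunit genes and for Cox7a2l beside Cox7a2. Points are libraries and bars the mean and SD; Atp5g3 is higher in germ-free libraries (55.9% against 51.4%), Cox7a2l lower (33.8% against 37.9%).

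The start regions of some members held binding motifs of known regulators of nuclear respiratory genes. RefSeq promoter windows (GRCm38.p6, 250 bases before to 50 after each start) were matched by symbol for 35 of 47 members. Exact matches were sought on both strands to GCGCATGCG for NRF1, CCGGAAGT for the ETS family with GABPA, AAGATGGCG for YY1 and TCAAGGTCA for ESRRA. At least 1 of the 4 motifs was found for 14 of 35 members (40%), against 2144 of 27025 genes with a promoter window (7.93%). By complex these were 1 of 3 members in complex II, 3 of 5 in complex III, 2 of 11 in complex IV and 8 of 16 in complex V. The background here is all genes with a window, not only those tested for expression. NRF1 matched 6 members (17.1%, against 1.95% of all genes), the ETS motif 4 (11.4%, against 4.31%), YY1 3 (8.57%, against 1.64%) and ESRRA 2 (5.71%, against 0.466%). These matches describe the letters in the window and say nothing of binding in these libraries. The NRF1 matches are shown because they were the most frequent, each in a stretch of 30 bases on the strand of the gene, with the matched bases in capitals. Where both strands match, the overlapping matches run together. The Uqcrc1 match begins 31 bases after the start, inside the annotated transcript, and the others begin 5 bases before it for Uqcr11, 162 for Cox6a1, 42 for Atp5g2, 50 for Atp5k and 241 for Atp5l.
Uqcr11, chr10:80406807-80406836, minus strand: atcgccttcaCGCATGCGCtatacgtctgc
Uqcrc1, chr9:108936668-108936697, plus strand: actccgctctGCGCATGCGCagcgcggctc
Cox6a1, chr5:115349101-115349130, minus strand: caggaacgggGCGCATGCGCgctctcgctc
Atp5g2, chr15:102671070-102671099, minus strand: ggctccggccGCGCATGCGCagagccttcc
Atp5k, chr5:108434430-108434459, minus strand: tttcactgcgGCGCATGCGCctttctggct
Atp5l, chr9:44920963-44920992, minus strand: aaccaataaCGCATGCGCatttcccccact

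The 250 bases before the start are shown for 3 members, those with a match there among the 4 members that hold any match and have the smallest p between arms, again with matches in capitals (NRF1 in Atp5k, ESRRA read on the opposite strand in Atp5g3, YY1 in Atp5j). The windows lie at chr5:108434400-108434649, chr2:73911327-73911576 and chr16:84834977-84835226, all on the minus strand of GRCm38.p6.
Atp5k: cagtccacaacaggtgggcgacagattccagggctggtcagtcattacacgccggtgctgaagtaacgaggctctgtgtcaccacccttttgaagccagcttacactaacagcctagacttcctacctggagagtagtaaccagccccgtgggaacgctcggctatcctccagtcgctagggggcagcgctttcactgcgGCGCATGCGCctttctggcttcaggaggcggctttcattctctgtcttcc
Atp5g3: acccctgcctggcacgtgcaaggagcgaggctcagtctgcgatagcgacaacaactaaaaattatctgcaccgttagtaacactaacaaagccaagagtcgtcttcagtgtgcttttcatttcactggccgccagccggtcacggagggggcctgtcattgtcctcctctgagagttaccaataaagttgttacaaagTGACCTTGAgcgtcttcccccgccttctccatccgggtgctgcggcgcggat
Atp5j: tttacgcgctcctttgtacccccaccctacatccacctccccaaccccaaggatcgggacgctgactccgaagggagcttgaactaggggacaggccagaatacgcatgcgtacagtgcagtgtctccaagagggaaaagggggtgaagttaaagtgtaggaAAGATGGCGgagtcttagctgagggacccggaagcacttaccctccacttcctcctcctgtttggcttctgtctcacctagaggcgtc

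Of the factors that act through such motifs, Esrra rose (47.2 ± 9.34 CPM in germ-free and 33.8 ± 3.67 CPM in conventional libraries, log2 fold change 0.49 ± 0.09, adjusted p = 9.18e-04), as did the coactivator Ppargc1a (0.52 ± 0.16, adjusted p = 0.0281). Nrf1 had a log2 fold change of 0.0015 (26.0 CPM in both arms), Gabpa of 0.040 and Yy1 of -0.12, none of them past the threshold. Pprc1, a relative of Ppargc1a, fell by 0.43 on the log2 scale (adjusted p = 0.0279). In the list of regulators 4 of the 11 tested genes rose (15.3% of all genes), the other 2 being the mitochondrial transcription factors Tfam (0.21) and Tfb2m (0.15).

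The difference between arms was followed through the day in 3 windows, with 3 germ-free and 4 conventional libraries each. In the morning (ZT02 and ZT06) 0 of 44 members passed in edgeR (0.693% of all genes were called higher) and 0 in DESeq2. Before adjustment, 2 members had a p under 0.05 (14.4% of all genes). All 44 had a positive fitted value, with a median log2 fold change of 0.18. Cox4i1 and Cox7a2l, the 2 below the unadjusted threshold, had log2 fold changes of 0.26 ± 0.12 and 0.19 ± 0.07 (adjusted p = 0.325 and 0.238). The third smallest p was that of Atp5b, with 0.25 ± 0.13 (adjusted p = 0.383).

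At dusk (ZT10 and ZT14) 36 members were higher in germ-free libraries (4.31% of all genes), with a median of 0.56. Cox6c had 220, 163 and 198 CPM in the germ-free libraries (ZT10 replicate 1, ZT10 replicate 2 and ZT14), against 113, 119, 132 and 119 CPM in the conventional libraries. The log2 fold change was 0.68 ± 0.12 (adjusted p = 0.00828). Cox6c was picked for its small p in this window, so the lack of overlap between its groups follows in part from that choice. Sdhb had 207, 158 and 179 CPM in the germ-free libraries, against 117, 106, 118 and 112 CPM in the conventional libraries (0.68 ± 0.13, adjusted p = 0.00960). Atp5j, the F6 coupling factor of the peripheral stalk, had 111, 92.9 and 104 CPM in the germ-free libraries, against 69.0, 68.2, 74.4 and 71.8 CPM in the conventional libraries (0.53 ± 0.09, adjusted p = 0.00828). These calls depended on single libraries. Without germ-free ZT10 replicate 1 the count was 0, without the germ-free ZT14 library 5 and without conventional ZT10 replicate 2 it was 23. In the first of these 36 of 44 members stayed under an unadjusted p of 0.05, and in the second 38. With all libraries 39 members and 4400 of 18334 genes were under it, and the share of all genes in the reduced sets is not given here.

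In the late night (ZT18 and ZT22) 39 members were higher in germ-free libraries (9.36% of all genes), with a median of 0.57. Cox7b had 157, 128 and 177 CPM in the germ-free libraries (ZT18, ZT22 replicate 1 and ZT22 replicate 2), against 75.5, 89.4, 108 and 81.5 CPM in the conventional libraries (0.80 ± 0.15, adjusted p = 0.00336). Atp5k had 108, 85.1 and 118 CPM in the germ-free libraries, against 58.9, 63.0, 70.8 and 62.6 CPM in the conventional libraries (0.70 ± 0.13, adjusted p = 0.00336). Cox5b, a matrix-side subunit, had 207, 156 and 247 CPM in the germ-free libraries, against 108, 112, 138 and 121 CPM in the conventional libraries (0.76 ± 0.15, adjusted p = 0.00352). These 3 genes were picked for the smallest p in this window, so the lack of overlap between their groups follows in part from that choice. Without germ-free ZT22 replicate 2, the highest library, the count was 6. The share of all genes called in that reduced set is not given here, so the loss is not shown to be particular to the members.

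**Figure D3:**
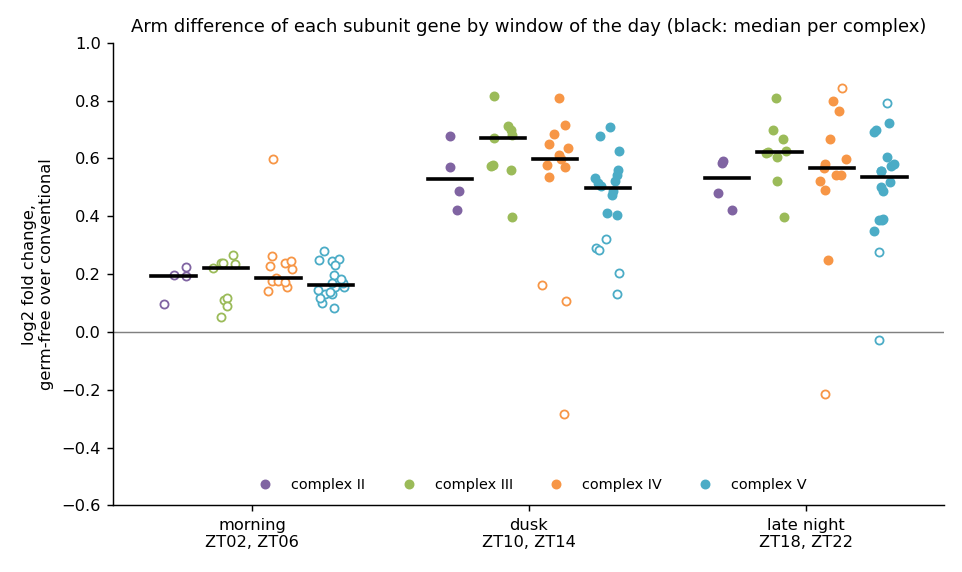
Log2 fold change, germ-free over conventional, of each tested subunit gene (y axis) in the morning, at dusk and in the late night (x axis; 3 germ-free and 4 conventional libraries per window). Filled points passed an adjusted p of 0.05 and black lines are medians per complex, near 0.2 in the morning (0.16 to 0.22) and between 0.50 and 0.67 later.

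The complexes had similar medians in each window. The median log2 fold changes in the morning, at dusk and in the late night were 0.19, 0.53 and 0.53 for complex II, 0.22, 0.67 and 0.62 for complex III, 0.19, 0.60 and 0.57 for complex IV and 0.16, 0.50 and 0.54 for complex V. Members passing at dusk were 4 of 4, 9 of 9, 10 of 13 and 13 of 18, and in the late night 4, 9, 11 and 15. Whether the difference between arms itself varied with the window was tested by the interaction. It was called for 0 members and for 0 of 18334 genes (0%) by edgeR, while 13 members had an unadjusted p under 0.05 (11.6% of all genes), and DESeq2 called 0 of the 43 members it tested. The smaller morning values are therefore not shown to differ from the later ones.

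The level of each complex was summarised per library as the mean log2 CPM of its tested genes, relative to the mean of the conventional libraries. For all 44 genes the germ-free libraries averaged 0.41 ± 0.19 above the conventional mean (SD, n = 9), from 0.17 at ZT02 to 0.72 at ZT22 replicate 2. The conventional libraries had an SD of 0.14 (n = 12), from -0.18 at ZT10 replicate 2 to 0.26 at ZT06 replicate 2. The arms overlapped only where the lowest germ-free libraries (0.170 at ZT02 and 0.206 at ZT10 replicate 2) met the conventional ZT06 libraries (0.221 and 0.255); conventional ZT22 replicate 1, at 0.167, lay just below every germ-free library. By time, the means were 0.17 in germ-free and -0.034 in conventional libraries at ZT02, 0.36 and 0.24 at ZT06, 0.41 and -0.16 at ZT10, 0.40 and -0.029 at ZT14, 0.53 and -0.071 at ZT18, and 0.51 and 0.053 at ZT22. The germ-free pairs at ZT10 (0.61 and 0.21) and at ZT22 (0.30 and 0.72) were farther apart than any conventional pair.

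**Figure D4:**
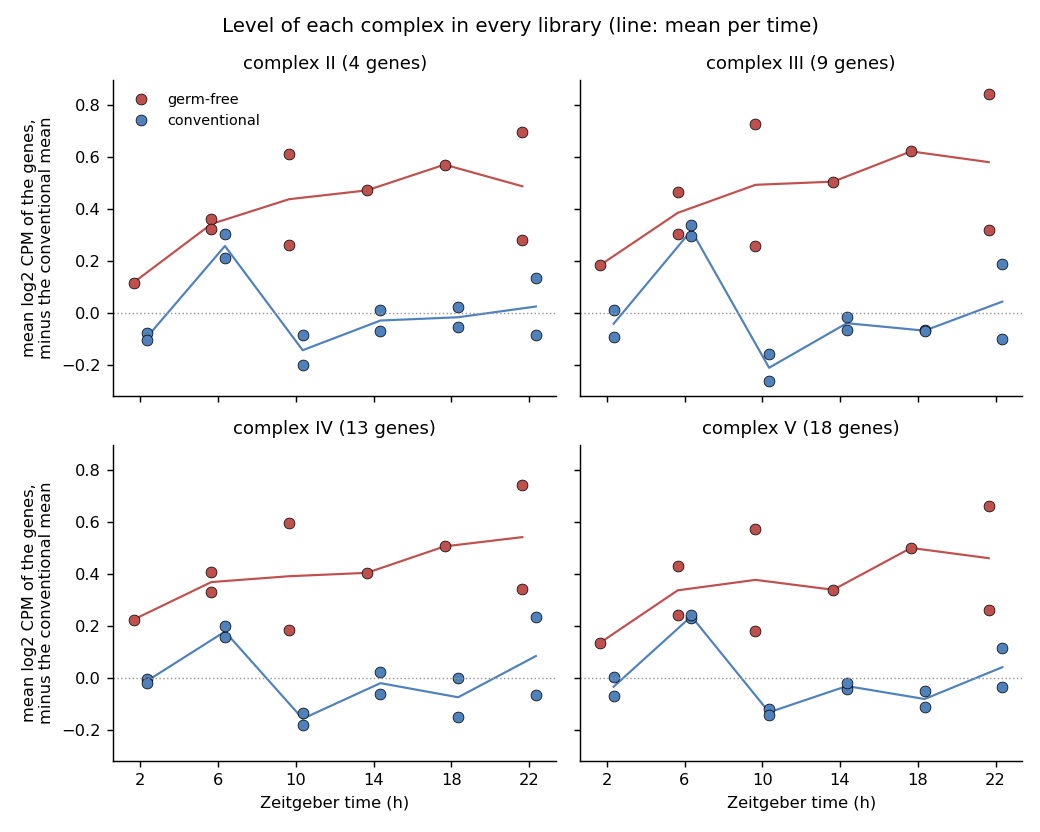
Mean log2 CPM of the tested genes of each complex, minus the conventional mean (y axis), at each Zeitgeber time (x axis, hours), for every germ-free and conventional library (points; lines join the means per time). In each complex the germ-free libraries range higher than the conventional ones, most at ZT10 to ZT22, and the conventional level is highest at ZT06.

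In edgeR no member was called as changing with time of day within an arm. In germ-free libraries, 0 members differed at dusk from morning (0% of all genes), with 2 at an unadjusted p under 0.05 (12.8%). For late night against dusk 0 members passed (3.32% of all genes), with 2 unadjusted (22.4%). For morning against late night 0 passed (0.0764%), with 12 unadjusted (11.4%). In conventional libraries 0 members passed for dusk against morning (0.818%), with 17 unadjusted (15.4%). Late night against dusk gave 0 (0%) and 1 unadjusted (7.3%), and morning against late night 0 (0.00545%) and 0 unadjusted (9.98%). The counts by DESeq2 were 1 for germ-free late night against dusk, 1 for conventional dusk against morning and 0 in the other 4 contrasts. The smallest p values were those of Cox5a at dusk against morning in conventional libraries (log2 difference -0.42 ± 0.12, adjusted p = 0.111) and of Atp5g1 in the late night against dusk in germ-free libraries (0.36 ± 0.11, adjusted p = 0.0676).

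A 24 h cosine fit gave the same picture. In germ-free libraries 0 members were called rhythmic (4.64% of all genes), with 2 unadjusted (22.8%), Atp5s and Atp5g1. In conventional libraries 0 were called (0.813%) and 0 unadjusted (14.1%). The rhythm differed between arms for 0 members (0% of all genes), with 1 unadjusted (7.72%), Uqcrc2, and DESeq2 called 0 in each of the 3 tests. Fitted peaks, none of them past the threshold, lay between ZT12 and ZT18 for 36 of 44 members in germ-free libraries and between ZT0 and ZT6 for 40 of 44 in conventional libraries. Uqcrc2 illustrates this, with a fitted amplitude of 0.19 on the log2 scale peaking at ZT15.3 in germ-free and 0.17 peaking at ZT4.05 in conventional libraries (adjusted p of the difference 0.641). The members share the same 21 libraries, so their fitted peaks are not independent.

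Related gene lists were also higher in part, against a background of 15.3% of all genes called higher. Of 37 complex I subunits 36 rose (median log2 fold change 0.39), led by Ndufv1 (187 ± 23.5 CPM in germ-free and 133 ± 11.5 CPM in conventional libraries, 0.49 ± 0.07, adjusted p = 1.83e-04). Of 76 mitochondrial ribosomal proteins 62 rose, with a smaller median of 0.24, and of 78 cytosolic ribosomal proteins 35 rose, with a median of 0.11. Among the 23 assembly factors of complexes II to V found by symbol, 15 rose (median 0.22), Sdhaf1 (0.35) and Sco1 (0.27) with the smallest p. Cycs, the mobile carrier between complexes III and IV, had 82.1 ± 13.2 CPM in germ-free and 56.0 ± 11.4 CPM in conventional libraries (0.56 ± 0.11, adjusted p = 0.00202). The ATPase inhibitor Atpif1 did not pass, at -0.11 on the log2 scale (adjusted p = 0.368). Cox8b, an isoform of muscle and brown fat that the member rule leaves out, had 11.7 ± 7.15 CPM in germ-free and 3.49 ± 1.73 CPM in conventional libraries (1.69 ± 0.29, adjusted p = 8.89e-04), and Cox7a1 had 1.40 and 1.05 CPM (0.45, adjusted p = 0.146). The differences between these lists were not tested.

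Several measures of the libraries moved with the arms, some only in part. As background for the marker counts, 2805 of 18334 genes (15.3%) were called higher and 2123 lower. Germ-free libraries held 28900903 to 48348181 counts and conventional ones 24388294 to 37097857. Adipocyte markers summed to 23675 to 36162 CPM in germ-free libraries and 21808 to 33348 CPM in conventional libraries, with 2 of 10 higher and 1 lower, so markers of the labelled tissue were abundant in every library. Thermogenic adipocyte markers, with 4 of 7 tested higher, summed to 34.4 to 113 CPM in germ-free libraries and 23.6 to 50.2 CPM in conventional libraries. Endothelial markers, with 3 of 7 higher and 1 lower, summed to 641 to 934 CPM in germ-free libraries and 609 to 963 CPM in conventional libraries. Skeletal muscle markers, with 3 of 5 tested lower, summed to 9.04 to 23.7 CPM in germ-free and 17.98 to 53.99 CPM in conventional libraries. The highest thermogenic sum belonged to germ-free ZT22 replicate 2, which also had the highest subunit level. Germ-free ZT18, with a subunit level of 0.53, had a thermogenic sum of 40.3 CPM, inside the conventional range. The thermogenic markers include Cox7a1 and Cox8b, complex IV isoforms left out of the members, so this sum is not separate from respiratory genes. Markers of liver, ciliated duct, spermatids and male accessory glands together exceeded 2 times their median over all libraries in 4 libraries (germ-free ZT14 and ZT22 replicate 1, conventional ZT02 replicate 2 and ZT10 replicate 2), and without these 40 of 44 members still passed between arms. At dusk, which loses 1 of 3 germ-free and 1 of 4 conventional libraries that way, 0 members passed after adjustment and 37 of 44 had an unadjusted p under 0.05. With all libraries 39 members and 4400 of 18334 genes had such a p at dusk. Without the libraries high in these markers, the median log2 fold change at dusk was 0.51, and that of Cox6c was 0.65 (adjusted p = 0.0733). The part of thermogenic, endothelial or muscle cells in the subunit difference was not tested.

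Exon length moved with the arms too. Over 13537 genes the log2 fold change between arms had a Spearman rho of -0.32 with exon length, a description across genes that are not independent. The members were short, with a median of 1475 bases against 3324 bases over the genes tested. Per library, the rho of a gene's deviation with exon length averaged -0.15 ± 0.17 in germ-free and 0.14 ± 0.10 in conventional libraries (SD). Taking out a smooth trend with length from each library left 39 of 44 members called higher, with a median log2 fold change of 0.33 in place of 0.43, and Cox4i2 and Cox7a2l were the 2 calls lost. Under the same correction 33 of 37 complex I subunits, 48 of 76 mitochondrial and 10 of 78 cytosolic ribosomal proteins remained higher. The 15.3% background for a higher call belongs to the fit without this correction, so these counts are not set against it. The share of all genes called higher under the correction is not given here. Germ-free ZT10 replicate 2 had the highest rho of its arm (0.20) and a subunit level of 0.21, close to the conventional ZT06 libraries. The lowest germ-free subunit level, 0.17 at ZT02, came with a negative rho of -0.19.

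**Figure D5:**
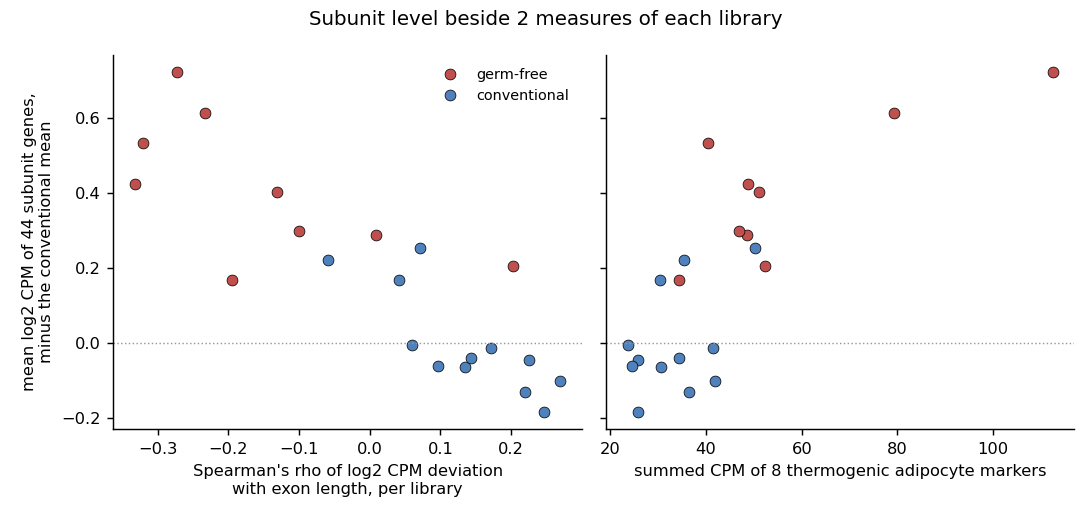
Mean log2 CPM of the 44 subunit genes minus the conventional mean (y axis) against the per-library rho of expression deviation with exon length (left) and against the summed CPM of 8 thermogenic adipocyte markers (right); points are germ-free and conventional libraries. Most germ-free libraries have a negative rho, among them ZT02 with the lowest germ-free subunit level (0.17, rho -0.19). ZT22 replicate 2 (rho -0.27) is highest in subunit level (0.72) and in thermogenic markers (113 CPM). The markers include Cox7a1 and Cox8b, complex IV isoforms left out of the members.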

How the data were processed

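Total RNA of epididymal white adipose tissue was sequenced in 21 libraries. The deposited table holds raw counts of reads per gene over exons, with an exon length for each gene. Reads were aligned with STAR 2.4.0i to mm10, per the submitters' processing notes; for the counting program, its use of strand and the gene annotation, details were not given in the sources used here. Gene positions and biotypes were taken from GENCODE M21, and promoter windows from RefSeq (GRCm38.p6).

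Samples were grouped by the labels' microbial status and time. Counts were tested with edgeR 4.0.16 (limma 3.58.1, R 4.3.3) after filterByExpr, TMM scaling and quasi-likelihood fits over all 21 libraries, with Benjamini-Hochberg adjustment over 18334 genes at 0.05. The arm was tested with time as a 6-level factor, windows in a model of group means, and rhythms with a 24 h cosine and sine per arm. Levels per library are CPM, or log2 CPM with a prior count of 2. Shares used counts per kilobase and exact permutation within times. Tests were checked on simulated data. The alternatives were DESeq2 1.42.0 or its size factors, no filter, a stricter filter (1 CPM in 9 libraries), a replicate block and a lowess exon length offset (span 0.5). Others were each library left out, the times with 2 libraries in each arm, a cosine time term, shares of counts and a shorter promoter window. A further fit of all 21 libraries held a separate arm difference for each replicate number. Depth was 24388294 to 48348181 counts, and the size of counting error beside the spread between libraries is not given here. Figures were drawn with matplotlib 3.10.9.

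Members and gene lists were chosen with earlier results of these data known. Named members were, per complex, up to 4 with the smallest p between arms among those called and up to 2 with the largest p among those not called, every tissue-restricted isoform and Cox7a2l, and the 3 smallest p per window or rhythm test; of other lists, the 2 with the smallest p. Other members were named to account for all of them. Same-numbered libraries of the arms did not deviate together at every time, so the numbers were not taken as pairs.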

Additional observations from a re-analysis of the deposited data

Results flagged for a closer look

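Among 37 sets of values over the 9 germ-free libraries (named members, levels of complexes and isoform shares), 2 had a library standing apart by Dixon's ratio at the 95% level. Chance alone flags about 1 in 20 such sets, and both concern the same gene and library. Cox4i2 had 5.29 CPM in germ-free ZT22 replicate 2, where the other 8 germ-free libraries had 1.89 to 2.73 CPM (ratio 0.754). In the same library the share of Cox4i2 beside Cox4i1 was 2.16% (ratio 0.527). That library also had the highest level of all 44 subunit genes and the highest sum of thermogenic adipocyte markers (113 CPM). Their part in the Cox4i2 value was not tested. No member had a difference between arms that varied with the window or rhythm past the threshold.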

How the results depend on the processing

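The direction of the arm difference was kept under all alternatives run for the called members whose values were recomputed singly, up to 4 per complex with Cox4i2, Cox7a2l and Atp5g1. The count of 41 higher members was 39 to 41 with 1 library left out, and changed to 10 in the times with 2 libraries in each arm. In the fit with an arm difference for each replicate number it was 0 for number 1 and 37 for number 2. No member was called different between the numbers. The 15.3% background of all genes belongs to the main fit, not to these alternatives. At dusk the count of 36 ran from 0 to 37 with 1 library left out, and was 0 without libraries high in neighbouring-tissue markers, an alternative chosen after seeing the data. In the late night the count of 39 ran from 6 to 40. The shares of all genes called in these reduced sets are not given here. For germ-free late night against dusk it was 0 to 1 with 1 library left out and 1 by DESeq2, and for conventional dusk against morning 1 by DESeq2. The share of Atp5g1, -0.47 points in all libraries, ran from -0.57 to -0.39 with 1 library left out, that of Cox4i2 from -0.10 to 0.054 and that of Cox6a2 from -0.034 to -0.023. The log2 fold change of Cox6b2 changed sign under the replicate block (0.057), in the times with 2 libraries in each arm (0.17) and in the contrast for number 1 (0.27). It ran from -0.11 to 0.085 with 1 library left out. The causes were not tested. In the 250 bases before the start, a window that leaves out matches after it, NRF1 matched 4 members, ETS 3, YY1 2 and ESRRA 1. The replicate block gave 40 higher members, the call of Cox4i2 between arms being lost (0.43, adjusted p = 0.0509; range over its alternatives 0.18 to 0.74), 35 at dusk and 39 in the late night. Cox4i2 also lost its call with no filter (0.51, adjusted p = 0.0530). Deviations of samples with the same number in the 2 arms had correlations of 0.50 at ZT06, 0.15 at ZT10 and -0.29 at ZT22. These values do not settle whether the numbers pair the arms, which the labels do not state, and no pairing was used. Depth limits Cox6a2, Cox7b2 and Cox8c, whose highest counts in a library were 6, 8 and 25.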
